A study of Mus musculus with 8 samples.

Results

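The 10 genes described here are Fgfr1, which encodes a receptor for fibroblast growth factors (FGFs), and 9 genes known as inhibitors or transcriptional responders of the FGF-ERK pathway: Spry1, Spry2, Spry4, Spred1, Spred2, Dusp4, Dusp6, Etv4 and Etv5. They were chosen by name, and their Ensembl identifiers were matched to symbols with the GENCODE M21 annotation of the mouse genome build GRCm38. All 10 were found among the 48440 genes listed for each library, and all 10 passed the filter on low counts that left 17049 genes for testing. Bulk RNA was sequenced from cultured mouse embryonic stem (ES) cells of the line MK6, from the C57BL/6J strain, collected on day 1 of in vitro differentiation. Wild-type (WT) cells were sequenced beside 3 lines edited at Tbxt, the gene for the T-box transcription factor brachyury, with 2 libraries per genotype. In Tbxt Δexon6/Δexon6 cells exon 6 was deleted from both alleles and in Tbxt Δexon6/+ cells from 1, while Tbxt insASAY/insASAY cells carry a pair of inserted human Alu elements, AluY and AluSx1, around exon 6 on both alleles. The 2 Δexon6/Δexon6 libraries came from different clones. For the other genotypes the number of clones is not given in the sources used here, so a line may be 1 clone, and clone and genotype cannot be told apart. By the study's protocol, cells were plated in a medium with a MEK inhibitor, a GSK3 inhibitor and LIF, then kept without them, and were differentiated with the GSK3 inhibitor CHIR99021. The exon 6 deletion was engineered without feeder cells and the Alu insertion on mouse embryonic fibroblast feeders.

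In this pathway, an FGF binds its receptor at the cell surface, and the adaptor Frs2, RAS, RAF and MEK pass the signal on to the kinases ERK1 and ERK2. Active ERK switches on genes whose products limit the same pathway, so that RNA of Sprouty, Spred and Dusp genes is widely read as a record of recent ERK activity. In mouse ES cells, autocrine Fgf4 acting through FGF receptors and ERK is known to move cells out of naive pluripotency, and FGF signalling later acts with brachyury in mesoderm.

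Levels are given as CPM, counts scaled to a common library size, with library sizes scaled by TMM, and comparisons between genes as CPM per kilobase of exon. The 8 libraries held between 24618587 and 28445952 reads on genes. The 10 genes drew between 111 and 3480 reads per library each, so counting error was largest for Spry4 and smallest for Fgfr1. The libraries held RNA of ES cells: the summed level of 8 general pluripotency genes, among them Pou5f1 and Sox2, ran from 1088 to 1510 CPM, and none of the 8 was under 1 CPM in any library. Of 10 fibroblast markers, Col3a1, Postn, Lum and Twist2 stayed under 1 CPM in every library. The other 6 were present, Dcn at 1.31 to 3.01, Thy1 at 2.38 to 4.54, Col1a2 at 2.63 to 8.83, Col1a1 at 4.21 to 14.2, Loxl1 at 9.73 to 18.0 and Fbln1 at 85.3 to 162 CPM. Tbxt itself, listed under its symbol T, was barely expressed on day 1, with 47 and 42 reads in WT, 26 and 22 in Δexon6/Δexon6, 39 and 54 in Δexon6/+ and 30 and 29 in insASAY/insASAY libraries. These counts cover the whole gene and do not show whether exon 6 was present. The 2 Δexon6/Δexon6 clones differed from each other more than the replicates of any other genotype, with a chi-square per degree of freedom of 10.8 against 2.74 to 3.37.

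A gene was called where edgeR's quasi-likelihood test gave a Benjamini-Hochberg adjusted p under 0.05 and the log2 fold change passed 0.5 in size. Against WT, 3 of the 10 genes were called in Δexon6/Δexon6 cells, all higher, beside 12.7% of all tested genes called and 6.12% called higher (6.59% lower). In Δexon6/+ cells 2 were called, 1 in each direction, beside 13.5% of all genes (6.60% higher and 6.89% lower). In insASAY/insASAY cells 4 were called, 2 in each direction, beside 21.3% of all genes (11.5% higher and 9.85% lower). A list of 10 genes gives only coarse shares, and its counts were not tested against these backgrounds. The median log2 fold change of the 10 genes was 0.20, -0.05 and 0.00 in the same order, beside -0.01, 0.00 and -0.01 over all tested genes. The 3 comparisons share the 2 WT libraries. The genes did not move as 1 block: the Spred genes were higher in both homozygous lines, Dusp4 rose in Δexon6/+ cells, and Fgfr1 and Spry1 fell in insASAY/insASAY cells. Bulk RNA cannot tell fewer cells of a type from less RNA per cell. The p-values rest on the spread between replicates, 2 per genotype, pooled over the 4 genotypes and moderated across genes. The Δexon6/Δexon6 clones, which differed most from each other, were thus judged with a spread shared with the other genotypes.

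**Figure D1:**
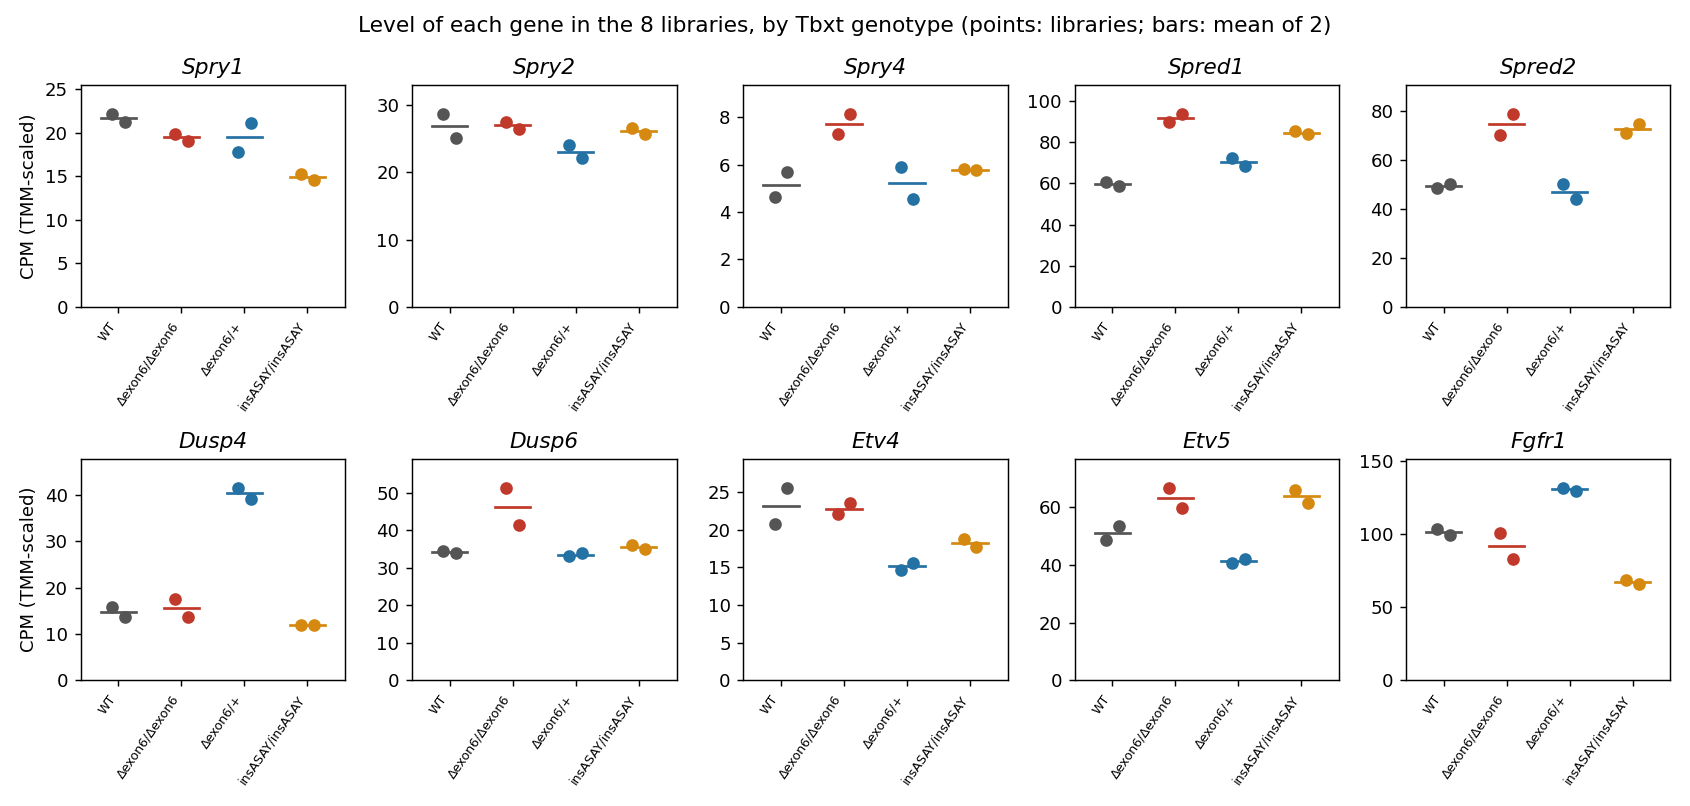
Level of the 10 genes in CPM (y axis, from 0) by Tbxt genotype (x axis). Points are libraries and bars the mean of 2; Dusp4 stands at 41.6 and 39.2 CPM in the Δexon6/+ libraries and between 11.9 and 17.7 CPM in the other 6.

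Fgfr1 (ENSMUSG00000031565.18, chromosome 8, 25513654 to 25575718, + strand) encodes the receptor tyrosine kinase through which FGFs act in epiblast-stage cells. Its level was 104 and 99.3 CPM in WT, 101 and 83.0 in Δexon6/Δexon6, 132 and 130 in Δexon6/+ and 68.7 and 65.8 in insASAY/insASAY libraries. The Δexon6/+ libraries were thus the highest and the insASAY/insASAY libraries the lowest, neither overlapping any other genotype. Against WT, Fgfr1 fell in insASAY/insASAY cells, with a log2 fold change of -0.59 (SE 0.07, adjusted p 4.6e-05). In Δexon6/+ cells the log2 fold change was 0.37 (adjusted p 0.0019), past the p threshold but not the fold threshold. In Δexon6/Δexon6 cells it was -0.14, with a 95% confidence interval from -0.30 to 0.02. It read -0.01 without the second clone and -0.28 (adjusted p 0.00013) without the first.

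Fgfr1 was the leading FGF receptor in every genotype. Its share of the summed CPM per kilobase of Fgfr1 to Fgfr4 was 72.6% in WT, 79.5% in Δexon6/Δexon6, 77.7% in Δexon6/+ and 74.5% in insASAY/insASAY cells. The other receptors changed in composition beneath it. Fgfr2 was called higher in Δexon6/+ cells, with a log2 fold change of 1.44 against WT (adjusted p 6.3e-07), and its share of the 4 receptors was 10.1%, beside 4.47% in WT, 4.60% in Δexon6/Δexon6 and 8.98% in insASAY/insASAY cells. Fgfr4 was called lower in all 3 lines, by 1.11, 0.95 and 1.51 on the log2 scale in Δexon6/Δexon6, Δexon6/+ and insASAY/insASAY cells. The 4 receptors together summed to 14.2 CPM per kilobase in WT, 11.7 in Δexon6/Δexon6, 17.0 in Δexon6/+ and 9.14 in insASAY/insASAY cells. These sums of paralogues, and those of the families below, were chosen after the values of their members were known.

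Of the fibroblast markers, Fbln1 was highest in Δexon6/+ libraries, as Fgfr1 was, at 161 and 162 CPM beside 126 and 127 in WT. The 10 markers summed to between 162 and 169 CPM in WT, 122 and 140 in Δexon6/Δexon6, 195 and 196 in Δexon6/+, and 122 and 123 in insASAY/insASAY libraries. Fbln1 made up most of each sum. Without it, the range was 35.7 to 41.6 in WT, 30.4 to 36.6 in Δexon6/Δexon6, 34.6 to 34.8 in Δexon6/+ and 28.1 to 29.3 CPM in insASAY/insASAY libraries. Of the 7 markers tested against WT, 2 were called lower and 0 higher in Δexon6/Δexon6, 2 higher and 2 lower in Δexon6/+, and 4 lower and 0 higher in insASAY/insASAY cells, beside 12.7%, 13.5% and 21.3% of all genes. The 2 called higher in Δexon6/+ cells were the collagen gene Col1a2, at 7.38 and 8.83 CPM beside 4.98 and 5.25 in WT, and Thy1, at 4.54 and 3.68 beside 2.53 and 3.13. Other markers went the other way in Δexon6/+ libraries. Loxl1 was at 9.73 and 10.3 CPM beside 13.2 and 15.5 in WT, and Col1a1 at 10.7 and 9.6 beside 11.8 and 14.2. Dcn was at 1.78 and 1.84 beside 2.06 and 2.31, and Col3a1 at 0.15 and 0.29 beside 0.61 and 0.67. Postn and Lum, both fibroblast matrix genes, were at most 0.07 and 0.22 CPM in the 8 libraries. The part of other cells in the Fgfr1 values was not tested.

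Sprouty proteins block the step between receptor and RAS. Spry2 (ENSMUSG00000022114.4, chromosome 14, 105891947 to 105896819, - strand) had the highest WT mean of the 10 genes, 12.9 CPM per kilobase of exon. Etv5 had a mean of 12.5 and exceeded Spry2 in the second WT library, at 13.1 beside 12.1. Spry4 (ENSMUSG00000024427.6, chromosome 18, 38586247 to 38601415, - strand) was the least abundant, at 1.09. Spry1 (ENSMUSG00000037211.12, chromosome 3, 37639947 to 37644598, + strand) lay between Spry2 and Spry4 at 7.47. Spry1 stood at 22.2 and 21.3 CPM in WT, 19.9 and 19.1 in Δexon6/Δexon6, 17.8 and 21.1 in Δexon6/+ and 15.3 and 14.6 in insASAY/insASAY libraries. It was lowest in both insASAY/insASAY libraries, and the Δexon6 genotypes overlapped each other below WT. Its fall in insASAY/insASAY cells was called, at -0.54 on the log2 scale (SE 0.09, adjusted p 0.00047). With counts taken without regard to strand this value was -0.49, just short of the fold threshold. In both Δexon6 genotypes the log2 fold change was -0.16, with adjusted p of 0.20 and 0.22.

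Spry2 varied less. It read 28.7 and 25.2 CPM in WT, 27.6 and 26.4 in Δexon6/Δexon6, 24.1 and 22.1 in Δexon6/+ and 26.6 and 25.8 in insASAY/insASAY libraries. It was called in 0 of the 6 comparisons by edgeR and in 0 by DESeq2, and had an unadjusted p under 0.05 in 2. In Δexon6/+ against Δexon6/Δexon6 cells its edgeR adjusted p was 0.043, at a log2 fold change of -0.22, under the fold threshold. Its log2 fold changes against WT were 0.00, -0.22 and -0.04 in that order, with 95% confidence intervals that together span -0.40 to 0.18. Spry4 was highest in the Δexon6/Δexon6 clones, at 7.29 and 8.14 CPM beside 4.62 and 5.69 in WT, 5.91 and 4.54 in Δexon6/+ and 5.79 and 5.78 in insASAY/insASAY libraries. Its rise in Δexon6/Δexon6 cells was called at 0.58 (SE 0.15, adjusted p 0.011). That call rested on the first WT library, without which the value was 0.44 (adjusted p 0.12). In Δexon6/+ and insASAY/insASAY cells the log2 fold changes were 0.02 and 0.17, with intervals reaching 0.38 and 0.51 and adjusted p of 0.94 and 0.41, although both insASAY/insASAY libraries lay above both WT libraries.

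Spred1 (ENSMUSG00000027351.14, chromosome 2, 117121374 to 117182279, + strand) and Spred2 (ENSMUSG00000045671.17, chromosome 11, 19924375 to 20024026, + strand) encode membrane proteins that hold back RAS activation; SPRED1 does so by bringing the RAS GTPase-activating protein neurofibromin to the membrane. They were higher than WT in both homozygous lines. Because both were higher in those lines, the 250 bases before the RefSeq start site of each gene are shown in the direction of transcription. Both windows are on the + strand of build GRCm38.p6 (Spred1 chr2:117120821-117121070, Spred2 chr11:19924192-19924441). Capitals mark the GC box GGGCGG, or CCGCCC for its other strand, a letter pattern read by Sp1-family factors.
Spred1: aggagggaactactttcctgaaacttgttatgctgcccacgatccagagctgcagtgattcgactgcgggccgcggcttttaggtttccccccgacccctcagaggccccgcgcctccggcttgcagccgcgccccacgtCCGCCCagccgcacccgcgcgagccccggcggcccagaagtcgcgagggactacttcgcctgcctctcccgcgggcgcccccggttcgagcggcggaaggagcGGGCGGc
Spred2: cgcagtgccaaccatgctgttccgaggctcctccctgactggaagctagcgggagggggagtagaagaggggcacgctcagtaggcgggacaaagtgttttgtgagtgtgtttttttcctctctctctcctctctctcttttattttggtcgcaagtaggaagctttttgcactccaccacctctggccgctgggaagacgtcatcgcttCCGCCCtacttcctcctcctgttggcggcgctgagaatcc
The RefSeq start of Spred1 lies upstream of the gene's GENCODE M21 start, and 0 of its GENCODE transcripts hold the bases just after that start, whereas 2 do for Spred2. The Spred1 window held 2 GC boxes, beginning 110 and 7 bases before the start, and had a GC content of 70.8%. The Spred2 window held 1, beginning 40 bases before the start, with a GC content of 56.0%. A GC box was present in 32.7% of all 32851 RefSeq promoter windows of this length, whose median GC content was 52.4%. RefSeq windows were available for 6 of the 10 genes, 7 windows in all since Etv5 has 2. Besides the Spred genes, GC boxes were found at Spry1, 1 in its window, and at the upstream Etv5 start, 3 in its window. A further 5 letter patterns were searched on both strands: the ETS site CCGGAAG, the T-box half-site TCACACC, the TCF/LEF site CTTTGAT, the AP-1 site TGANTCA and the CRE TGACGTCA. They occur in 6.91%, 3.33%, 3.21%, 6.75% and 1.55% of all windows, and 0 of the 7 windows held any of them.

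Spred1 was measured at 60.8 and 58.8 CPM in WT, 89.8 and 93.9 in Δexon6/Δexon6, 72.4 and 68.4 in Δexon6/+ and 85.5 and 84.1 in insASAY/insASAY libraries. The 4 genotypes formed 4 separate levels with WT at the bottom and Δexon6/+ next to it. The log2 fold change against WT was 0.62 in Δexon6/Δexon6 (SE 0.05, adjusted p 1.9e-05), 0.24 in Δexon6/+ (SE 0.05, adjusted p 0.0050) and 0.50 in insASAY/insASAY cells (SE 0.05, adjusted p 1.5e-05). The insASAY/insASAY value lay on the fold threshold: it was 0.48 without the second WT library and 0.49 without the first insASAY/insASAY library, with adjusted p of 0.00078 and 0.00061. The neighbouring levels of Δexon6/Δexon6 and insASAY/insASAY did not differ beyond the test (adjusted p 0.16).

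Spred2 gave 2 levels. It stood at 48.5 and 50.2 CPM in WT and 50.2 and 44.0 in Δexon6/+ libraries, but at 70.3 and 79.0 in Δexon6/Δexon6 and 71.2 and 74.8 in insASAY/insASAY libraries. Against WT the log2 fold change was 0.60 in Δexon6/Δexon6 (SE 0.07, adjusted p 0.00013) and 0.56 in insASAY/insASAY cells (SE 0.07, adjusted p 5.9e-05), and both calls held in each fit that left out 1 library, between 0.51 and 0.68. In Δexon6/+ cells it was -0.07, with a confidence interval from -0.23 to 0.10. Spred2 was called in 4 of the 6 comparisons, more than any other of the 10 genes. The low-abundance paralogue Spred3 was called higher in the same homozygous lines, by 1.25 in Δexon6/Δexon6 and 1.02 in insASAY/insASAY cells on the log2 scale. The 3 Spred genes together summed to 20.3 CPM per kilobase in WT, 21.3 in Δexon6/+, 31.5 in Δexon6/Δexon6 and 29.9 in insASAY/insASAY cells, whereas Spry1, Spry2 and Spry4 summed to 21.5, 18.9, 21.3 and 18.9 in that order.

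**Figure D2:**
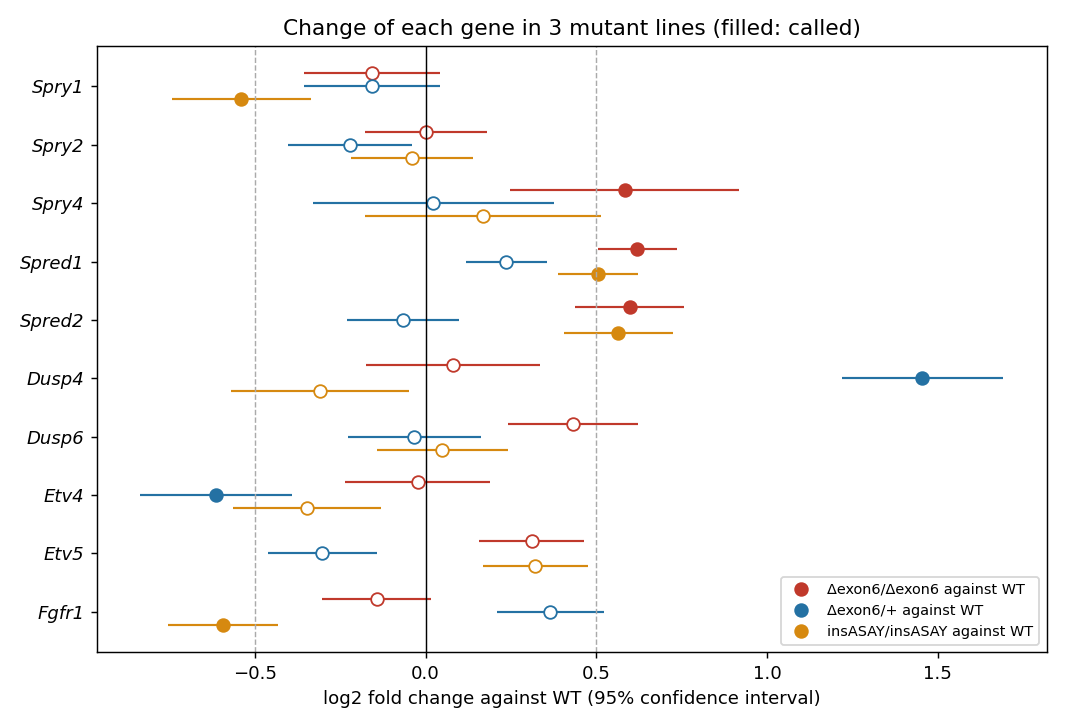
Log2 fold change of each gene (x axis) against WT in the 3 mutant lines, with 95% confidence intervals; filled points passed both thresholds and dashed lines mark 0.5 and -0.5. Dusp4 in Δexon6/+ cells, at 1.46, lies farthest from 0.

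Dusp4 and Dusp6 encode dual-specificity phosphatases that remove the activating phosphates of ERK, DUSP4 in the nucleus and DUSP6 in the cytoplasm. Dusp4 (ENSMUSG00000031530.6, chromosome 8, 34807297 to 34819894, + strand) showed the largest change of the 10 genes. Its level was 41.6 and 39.2 CPM in Δexon6/+ libraries, beside 15.8 and 13.7 in WT, 17.7 and 13.6 in Δexon6/Δexon6 and 11.9 and 11.9 in insASAY/insASAY libraries. The Δexon6/+ libraries lay above the other 6. The rise in Δexon6/+ cells was 2.74-fold (log2 fold change 1.46, SE 0.11, adjusted p 8.3e-07), and ranged from 1.35 to 1.56 on the log2 scale over all alternatives. In Δexon6/Δexon6 cells the log2 fold change was 0.08, with an interval from -0.17 to 0.33. In insASAY/insASAY cells it was -0.31 (adjusted p 0.050, above the threshold before rounding).

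Dusp6 (ENSMUSG00000019960.7, chromosome 10, 99263231 to 99267489, + strand) did not follow Dusp4. It was measured at 34.6 and 34.0 CPM in WT, 51.4 and 41.3 in Δexon6/Δexon6, 33.2 and 33.9 in Δexon6/+ and 36.1 and 35.0 in insASAY/insASAY libraries. The Δexon6/Δexon6 clones were the highest and differed from each other more than the remaining 6 libraries did among themselves. The log2 fold change in Δexon6/Δexon6 cells was 0.43 (SE 0.09, adjusted p 0.0026), under the fold threshold. It was 0.58 with the first clone alone and 0.27 with the second alone, so the call depended on the clone. In Δexon6/+ and insASAY/insASAY cells the values were -0.03 and 0.05, with adjusted p of 0.82 and 0.68. The ratio of Dusp4 to Dusp6, both per kilobase, was 0.46 and 0.52 in the WT libraries and between 1.32 and 1.43 in the Δexon6/+ libraries.

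Dusp4 had a larger share of 5 ERK phosphatase genes in Δexon6/+ cells, among which the X-linked Dusp9 was the most abundant. Of the summed CPM per kilobase of Dusp4, Dusp5, Dusp6, Dusp7 and Dusp9, Dusp4 held 5.01% in WT, 5.33% in Δexon6/Δexon6, 18.4% in Δexon6/+ and 5.09% in insASAY/insASAY cells. Dusp9 was called lower in Δexon6/+ cells by 0.83 on the log2 scale, and Dusp5, which like DUSP4 acts in the nucleus, by 1.04. The sum of all 5 was 107 CPM per kilobase in WT and Δexon6/Δexon6, 80.4 in Δexon6/+ and 85.4 in insASAY/insASAY cells. The sum was lowest in the line where Dusp4 was highest.

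Neural progenitor markers also differed in Δexon6/+ cells. Sox1 stood at 24.5 and 23.6 CPM there and between 5.36 and 7.91 CPM in the other 6 libraries, and Pax6 at 6.74 and 5.93 beside 1.43 to 3.0. Nes went the other way, at 68.2 CPM in both Δexon6/+ libraries beside 89.7 and 94.1 in WT and 104 to 186 in the other lines. Of the 7 markers tested against WT, 2 were called higher and 0 lower in Δexon6/+ cells, 1 higher and 1 lower in Δexon6/Δexon6 cells, and 0 higher and 1 lower in insASAY/insASAY cells, beside 13.5%, 12.7% and 21.3% of all genes. The 9 markers summed to 147 to 156 CPM in WT, 162 to 166 in Δexon6/+, 174 to 217 in Δexon6/Δexon6 and 153 to 161 in insASAY/insASAY libraries, with Nes the largest part. Without Nes the range was 57.8 to 61.6 in WT, 93.3 to 97.6 in Δexon6/+, 31.1 to 38.5 in Δexon6/Δexon6 and 44.1 to 49.2 CPM in insASAY/insASAY libraries. The neural genes Neurog2 and Hes5 stayed under 1 CPM in all 8 libraries. The part of neural cells in the Dusp4 values was not tested.

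Etv4 and Etv5 encode ETS transcription factors of the PEA3 group, induced by FGF-ERK signalling and used as its readout in many tissues. Etv4 (ENSMUSG00000017724.14, chromosome 11, 101769742 to 101785371, - strand) was measured at 20.8 and 25.6 CPM in WT, 22.1 and 23.5 in Δexon6/Δexon6, 14.7 and 15.6 in Δexon6/+ and 18.7 and 17.7 in insASAY/insASAY libraries. The Δexon6/+ libraries were lowest, followed by insASAY/insASAY, while WT and Δexon6/Δexon6 overlapped. Against WT, Etv4 fell in Δexon6/+ cells with a log2 fold change of -0.61 (SE 0.10, adjusted p 0.00056). Without the second WT library this became -0.46 (adjusted p 0.012), under the fold threshold. In insASAY/insASAY cells it was -0.35 (adjusted p 0.012), with -0.19 (adjusted p 0.19) without the second WT library and -0.31 (adjusted p 0.088) without the second insASAY/insASAY library, and in Δexon6/Δexon6 cells -0.02 (adjusted p 0.88).

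Etv5 (ENSMUSG00000013089.15, chromosome 16, 22381309 to 22439719, - strand) was high in both homozygous lines and low in Δexon6/+ cells. Its libraries gave 48.6 and 53.6 CPM in WT, 66.9 and 59.9 in Δexon6/Δexon6, 40.9 and 42.0 in Δexon6/+ and 66.2 and 61.5 in insASAY/insASAY cells. The homozygous lines overlapped each other, and both lay above WT and Δexon6/+. Against WT the log2 fold changes were 0.31 (adjusted p 0.0052), -0.30 (adjusted p 0.0069) and 0.32 (adjusted p 0.0025) in Δexon6/Δexon6, Δexon6/+ and insASAY/insASAY cells. All 3 passed the p threshold and stayed under the fold threshold. The adjusted p rose to 0.075 in Δexon6/Δexon6 cells without the first WT library, and in Δexon6/+ cells to 0.094 without the second WT library and 0.065 without the first Δexon6/+ library. Compared directly, Etv5 was called lower in Δexon6/+ than in Δexon6/Δexon6 cells, at -0.61. It was called higher in insASAY/insASAY than in Δexon6/+ cells, at 0.62. Etv5 took 61.0% of the summed CPM per kilobase of Etv1, Etv4 and Etv5 in WT and 70.3% in insASAY/insASAY cells, where Etv4 took 26.5% beside 36.4% in WT.

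Compared with each other, the mutant lines separated most between Δexon6/+ and the homozygous lines. Between Δexon6/+ and Δexon6/Δexon6 cells 6 of the 10 genes were called, beside 22.2% of all tested genes. Dusp4 and Fgfr1 were higher in Δexon6/+ cells (11.2% of all genes were called higher), and Spry4, Spred2, Etv4 and Etv5 were lower (11.0% lower). The median log2 fold change of the 10 genes was -0.42, beside 0.01 over all genes. Dusp4 differed by 1.38 (adjusted p 8.0e-07), Etv5 by -0.61 (adjusted p 2.2e-05), Spred2 by -0.66 (adjusted p 1.3e-05) and Etv4 by -0.59 (adjusted p 0.00046). The calls of Fgfr1 at 0.51 and Spry4 at -0.56 were less firm. Without the second Δexon6/Δexon6 clone they were 0.37 and -0.48. Without the first Δexon6/+ library Fgfr1 was 0.50, just under the threshold before rounding, and without the second Spry4 was -0.39. Dusp6, at -0.46, passed the p threshold only, and was -0.62 without the second Δexon6/Δexon6 clone.

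Between insASAY/insASAY and Δexon6/+ cells 4 of the 10 genes were called, beside 27.5% of all genes (14.6% higher and 13.0% lower). Spred2 and Etv5 were higher in insASAY/insASAY cells, by 0.63 and 0.62 on the log2 scale (adjusted p 1.5e-05 for both). Dusp4 was lower, with a log2 fold change of -1.76 (adjusted p 1.3e-07), and Fgfr1 likewise with -0.96 (adjusted p 5.9e-07). Dusp4 thus had its widest span between these lines, and Fgfr1 stood at 0.51 times its Δexon6/+ level.

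Between insASAY/insASAY and Δexon6/Δexon6 cells 0 of the 10 genes were called by edgeR, and 0 by DESeq2's Wald test, beside 5.16% of all genes (2.79% higher and 2.38% lower). The 10 genes had a median log2 fold change of -0.35, beside 0.01 over all tested genes. At an unadjusted p under 0.05, 7 of the 10 passed, beside 30.1% of all genes. At an adjusted p under 0.05, without the fold threshold, 5 did, beside 15.4% of all genes: Fgfr1 at -0.45 and Spry1, Dusp4, Dusp6 and Etv4 at -0.38, -0.39, -0.38 and -0.33, all lower in insASAY/insASAY cells. Without the second Δexon6/Δexon6 clone Dusp4, Dusp6 and Fgfr1 passed both thresholds, at -0.57, -0.53 and -0.59, and without the first clone Spry4 did, at -0.51. Without either insASAY/insASAY library only Fgfr1 still had an adjusted p under 0.05, of 0.019 and 0.022, while the other 4 lay between 0.082 and 0.22. Dusp4 also missed it without the first Δexon6/Δexon6 clone (adjusted p 0.21) and Etv4 without the second (adjusted p 0.055). Spred2 and Etv5 read -0.03 and 0.01 between these lines, with 95% confidence intervals from -0.19 to 0.12 and from -0.14 to 0.16.

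The rest of the pathway was described with lists of genes by role. FGF ligands were low. Of 18, 9 passed the filter, and Fgf4, the main FGF of ES cells, was lower in all 3 lines. Fgf4 stood at 20.3 and 17.0 CPM in WT, 4.78 and 2.71 in Δexon6/Δexon6, 5.79 and 5.84 in Δexon6/+ and 5.07 and 5.53 in insASAY/insASAY libraries, with log2 fold changes of -2.33, -1.68 and -1.81. Of the 9 ligands, 4 were called lower and 0 higher in Δexon6/Δexon6, 2 lower and 1 higher in Δexon6/+, and 3 lower and 0 higher in insASAY/insASAY cells, beside 12.7%, 13.5% and 21.3% of all genes called in either direction. The 1 that rose was Fgf8, by 0.90 in Δexon6/+ cells. Of 8 tested other receptors and co-receptors, 3 were called lower and 0 higher in Δexon6/Δexon6, 2 lower and 2 higher in Δexon6/+, and 4 lower and 1 higher in insASAY/insASAY cells, to be read beside the same shares. Sdc4, a heparan sulfate carrier, was called lower in each, by 0.71, 0.70 and 0.58 on the log2 scale.

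Few genes of the kinase cascade passed the fold threshold. Of its 22 genes, 1 was called in Δexon6/Δexon6 (Rps6ka3, an ERK-activated kinase, at 0.52), 1 in Δexon6/+ (Frs3, an FGF receptor adaptor, at -0.59) and 2 in insASAY/insASAY cells (Frs3 at -0.60 and Braf, a RAF kinase, at -0.70). By the same rule 12.7%, 13.5% and 21.3% of all tested genes were called, in the same order. Without the fold threshold, at an adjusted p under 0.05, 13, 12 and 14 of the 22 passed in that order, beside 35.4%, 31.6% and 47.3% of all genes. Between mutant lines, 2 of the 22 were called lower and 0 higher in Δexon6/+ than in Δexon6/Δexon6 cells. Among them was Hras, which encodes a RAS protein, at -0.69. In insASAY/insASAY cells 0 were called against Δexon6/Δexon6 cells, and 1 was higher and 2 lower than in Δexon6/+ cells. Of all tested genes 22.2%, 5.16% and 27.5% were called in these comparisons. The median log2 fold change of the 22 against WT was 0.11, -0.07 and 0.00.

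Other negative regulators and other ERK response genes are read beside the same shares of all genes called, 12.7% in Δexon6/Δexon6, 13.5% in Δexon6/+ and 21.3% in insASAY/insASAY cells. Of 19 other negative regulators, 3 were called higher and 0 lower in Δexon6/Δexon6 cells, among them Dusp5 at 0.50. In Δexon6/+ cells 1 was called higher and 4 lower, among them Dusp1 at -1.30. In insASAY/insASAY cells 1 was higher and 3 lower, among them Dusp8 at -1.56. Of 20 tested other ERK response genes, 3 were called higher and 0 lower in Δexon6/Δexon6 cells: the immediate early gene Egr1 at 0.77, Myc at 0.88 and Ier3 at 1.05. In Δexon6/+ cells 7 were called lower and 1 higher, with Plaur, the urokinase receptor gene, at -2.31, the AP-1 subunit gene Junb at -1.40 and Phlda1 at -1.18. In insASAY/insASAY cells 3 were lower and 1 higher, with Junb at -1.24 and Jun at -0.55 among those that fell. Several of these genes also respond to serum, stress and cytokines.

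The same lists between mutant lines gave 8 ERK response genes lower and 0 higher in Δexon6/+ than in Δexon6/Δexon6 cells, with Plaur at -2.67 and Myc at -2.20. They gave 9 lower and 0 higher in insASAY/insASAY than in Δexon6/Δexon6 cells, with Junb at -1.17 and Myc at -1.09. There 0 of the 10 genes were called. Their median log2 fold change was -0.35, beside -0.39 for the ERK response genes and 0.01 over all genes. Between insASAY/insASAY and Δexon6/+ cells 6 ERK response genes were higher and 3 lower. The other negative regulators gave 7 lower and 1 higher, 5 lower and 0 higher, and 2 lower and 5 higher in the same order. Of all tested genes 22.2%, 5.16% and 27.5% were called in these comparisons. In Δexon6/+ cells against WT, where Dusp4 was called higher, the 1 other negative regulator called higher was Rasa3, a RAS GTPase-activating protein gene, at 0.71, and the 1 ERK response gene was Elk3, an ETS factor gene, at 0.67.

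**Figure D3:**
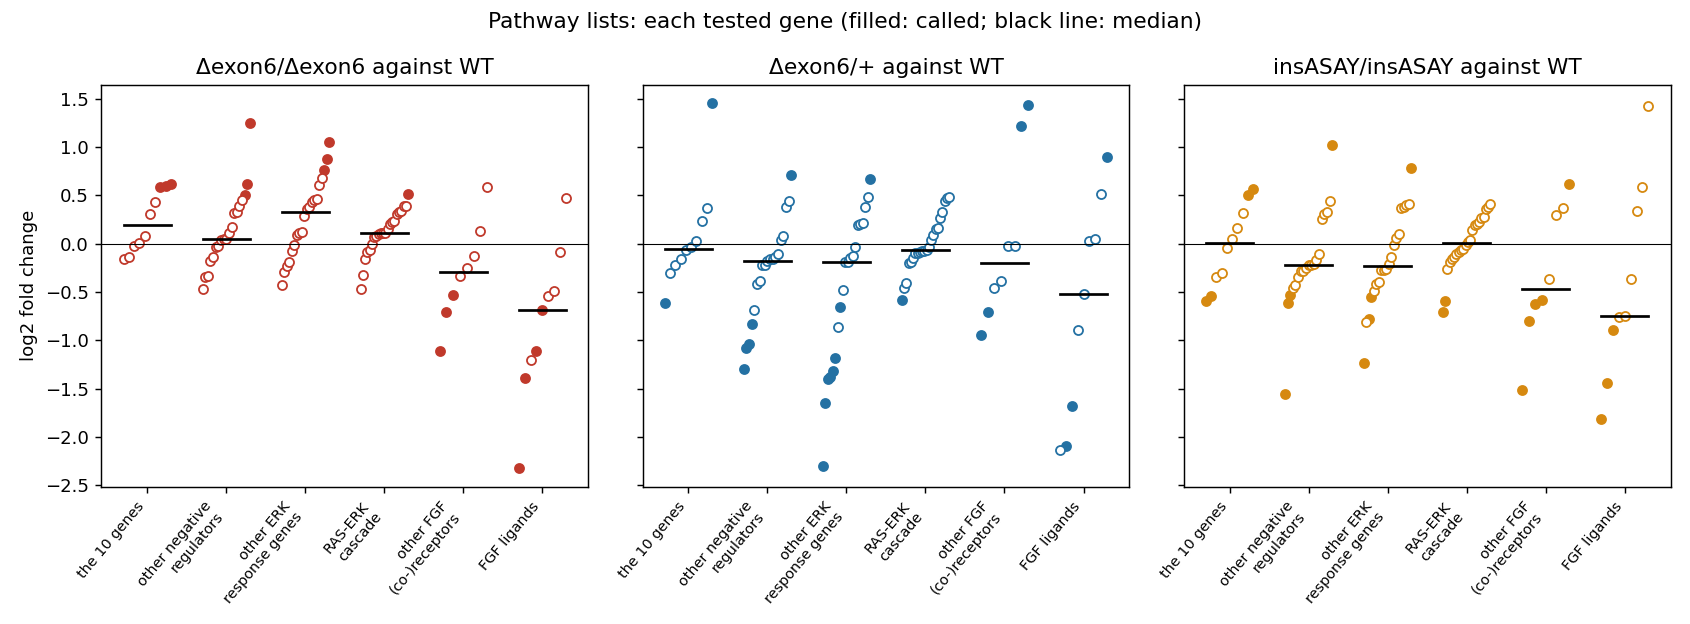
Log2 fold change against WT (y axis) of each tested gene of 6 lists (x axis) in the 3 mutant lines; filled points passed both thresholds and black lines are medians. In Δexon6/+ cells Dusp4, at 1.46, stands above the other 9 genes, and 7 of 20 other ERK response genes are called lower.

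Pluripotency and mesoderm lists were counted in the same way, beside 12.7% of all genes called in Δexon6/Δexon6, 13.5% in Δexon6/+ and 21.3% in insASAY/insASAY cells. Naive pluripotency genes summed to 422 to 441 CPM in WT, 230 to 293 in Δexon6/Δexon6, 292 to 294 in Δexon6/+ and 266 to 268 in insASAY/insASAY libraries. Of the 13 genes, 8, 9 and 8 were called lower in the 3 lines, and 0 higher. Of 11 formative and primed genes, 1 was higher and 2 lower in Δexon6/Δexon6, 2 higher and 1 lower in Δexon6/+, and 1 higher and 1 lower in insASAY/insASAY cells. Of 9 tested primitive streak and mesoderm genes, 1 was higher and 1 lower in Δexon6/Δexon6, 3 higher and 2 lower in Δexon6/+, and 3 higher and 1 lower in insASAY/insASAY cells. Of the 8 general pluripotency genes, 1 was higher and 3 lower, 2 higher and 4 lower, and 1 higher and 1 lower in that order. The part of these lists in the values of the 10 genes was not tested.

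To see whether a whole chromosome segment moved with a gene, the tested genes within 2 Mb on either side were examined. The 25 neighbours of Dusp4 in Δexon6/+ cells had a median log2 fold change of 0.06 against WT. Of them 3 were called higher and 0 lower, beside 6.60% and 6.89% of all genes. Dusp4 rose more than that median, but not more than every neighbour. Gm35021, 0.93 Mb away, read 1.75, and Trmt9b and Prag1, 1.67 and 1.31 Mb away, read 1.09 and 0.76. The Spred genes also changed more than the median of their neighbours. The 29 neighbours of Spred1 and the 23 of Spred2 had medians of 0.05 and 0.09 in Δexon6/Δexon6 and -0.01 and 0.08 in insASAY/insASAY cells. For Fgfr1 in insASAY/insASAY cells, the 37 neighbours had a median of -0.26, beside -0.04 over the 872 tested genes of chromosome 8. Of the 37, 9 were called lower and 1 higher, beside 9.85% and 11.5% of all genes. Within 5 Mb the median of 66 neighbours was -0.12. The 37 had medians of -0.15 in Δexon6/Δexon6 and 0.02 in Δexon6/+ cells. Etv4 in Δexon6/+ cells had 117 neighbours with a median of -0.13. Of them 13 were called lower and 5 higher, beside 6.89% and 6.60% of all genes. The same 117 had medians of -0.08 in Δexon6/Δexon6 and -0.10 in insASAY/insASAY cells, where 13 and 15 were called lower and 3 and 7 higher. Of all genes 6.59% and 9.85% were called lower there and 6.12% and 11.5% higher. Spry1 lies on chromosome 3, whose 847 tested genes had a median of 0.33 against WT in Δexon6/+ cells, but its own 25 neighbours had a median of 0.07 and the 55 within 5 Mb one of 0.04. In insASAY/insASAY cells, where Spry1 fell, the 25 had a median of 0.12.

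**Figure D4:**
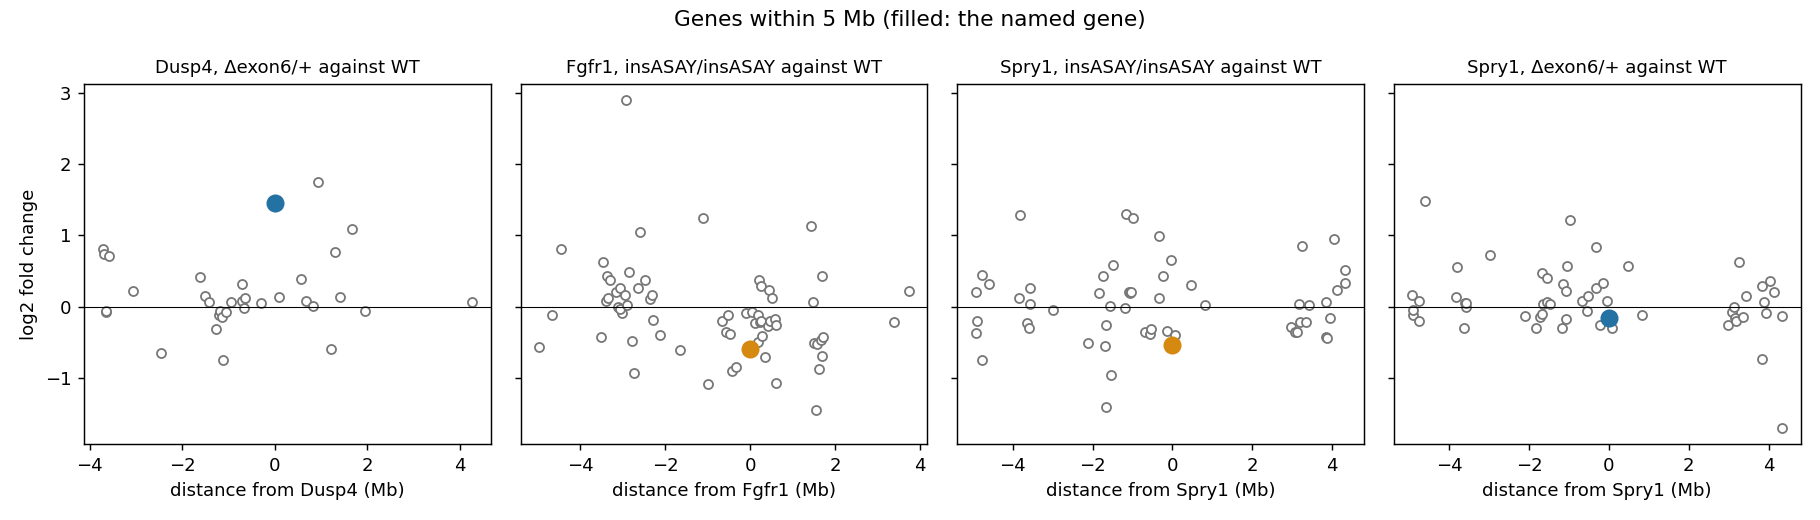
Log2 fold change against WT (y axis) of the tested genes within 5 Mb by distance in Mb (x axis), around Dusp4 in Δexon6/+, Fgfr1 in insASAY/insASAY and Spry1 in both lines; the filled point is the named gene. Dusp4, at 1.46 in Δexon6/+ cells, lies above all but 1 neighbour, and the 66 genes around Fgfr1 in insASAY/insASAY cells have a median of -0.12.

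For the 3 genes called in most comparisons, the genes with the most similar profile were taken from 12827 genes whose mean level was 2 CPM or more, by Pearson's r of log2 CPM over the 8 libraries. These 8 points are 4 pairs of replicates, so r is a description. Spred2 was followed most closely by Ubtd2 (r = 0.994), Tfe3 and Suv39h1 (0.992 each). Dusp4 was followed by Slc22a23 (0.995), Nrd1 and Ncam1 (0.995 and 0.994), and Slc22a23 rose from 29.3 CPM in WT to 65.1 in Δexon6/+ cells. Fgfr1 was followed by Nek1 (0.999), Hbs1l (0.992) and Thsd7a (0.990). Nek1 lies on the chromosome of Fgfr1 and Ubtd2 on that of Spred2, each more than 5 Mb away, and the other 7 lie on other chromosomes.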

How the data were processed

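Total RNA was sequenced as strand-specific poly(A) libraries. The authors mapped the reads to mm10 with STAR 2.7.2a and deposited whole-number counts of reads per gene, without normalization; their own tests used DESeq2 1.40.2. The reverse-strand counts were used here, since the other strand held 4.11% to 4.78% of the reads assigned to either. STAR's 4 summary lines, present for 7 libraries, were left out. Of the 48440 identifiers, 48058 matched GENCODE M21 and 40606 did so with the same version.

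The tests were edgeR's quasi-likelihood tests (edgeR 4.0.16 in R 4.3.3), two-sided, with TMM scaling, filterByExpr at a minimum count of 10, 1 model over the 8 libraries (4 residual degrees of freedom) and Benjamini-Hochberg adjustment over 17049 genes, and the steps were tested on simulated data. Confidence intervals are 95%. Calls needed both an adjusted p below 0.05 and a log2 fold change beyond 0.5 either way, which are the study's thresholds. DESeq2 1.42.0, limma 3.58.1, Python 3.11.15, pandas 2.3.3 and matplotlib 3.10.9 were also used. Promoter windows came from RefSeq on GRCm38.p6.

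The 10 genes and 11 further lists were chosen with earlier results of these data known. All 10 are named; from each list up to 3 called genes per comparison with the smallest adjusted p, any cell type marker, and the 3 genes most like each of the 3 genes called most often. Other genes named were chosen after their values were seen. Replicate numbers come from the labels and did not pair the samples (correlation of replicate differences -0.01 to 0.05).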

Additional observations from a re-analysis of the deposited data

Results flagged for a closer look

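The effects of 2 lines against WT were tested for a difference by comparing the lines directly, since WT is shared. For 10 pairs of gene and comparison, the effect of 1 line differed from another's past both thresholds (edgeR, adjusted p and log2 fold change as above). Of the 10 genes, 6 were called between Δexon6/+ and Δexon6/Δexon6 cells and 0 between insASAY/insASAY and Δexon6/Δexon6 cells. Between insASAY/insASAY and Δexon6/+ cells 4 were called. By the same rule 22.2%, 5.16% and 27.5% of all tested genes were called, in the same order.

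Between Δexon6/+ and Δexon6/Δexon6 cells the differences on the log2 scale were 1.38 for Dusp4 and 0.51 for Fgfr1, both higher in Δexon6/+ cells, and -0.56 for Spry4, -0.66 for Spred2, -0.59 for Etv4 and -0.61 for Etv5. Between insASAY/insASAY and Δexon6/+ cells they were 0.63 for Spred2, -1.76 for Dusp4, 0.62 for Etv5 and -0.96 for Fgfr1. Dusp4 and Fgfr1 were in both sets with Δexon6/+ cells on the high side, and Spred2 and Etv5 in both with Δexon6/+ cells on the low side. The 2 sets share the Δexon6/+ libraries. With 2 libraries per genotype no single library could be tested as standing apart from its group.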

How the results depend on the processing

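Of 960 values of the 10 genes under the alternatives, 927 kept their direction or stayed uncalled, 26 lost a call, 7 gained one and 0 called values reversed. The TREAT test, which asks for a change beyond 0.5 with confidence, accounted for 15 of the 26: it called 0 of the 10 genes in Δexon6/Δexon6 and 0 in insASAY/insASAY cells against WT, 1 in Δexon6/+ cells (Dusp4), 1 between Δexon6/+ and Δexon6/Δexon6 (Dusp4), and 2 between insASAY/insASAY and Δexon6/+ cells (Dusp4 and Fgfr1). Leaving out 1 library changed the count in each of the 6 comparisons, furthest between insASAY/insASAY and Δexon6/Δexon6 cells. The causes were not tested. With the replicate block the counts were 3, 2 and 4 against WT and 6, 0 and 4 between lines, as without it, and it changed no call of the 10 genes.

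Over all genes, TREAT called 267, 775 and 1215 against WT beside 2167, 2299 and 3639, and 1548, 134 and 2192 between lines beside 3778, 880 and 4696. Other alternatives moved the count by more than 1.5 times in 2 comparisons. Between insASAY/insASAY and Δexon6/Δexon6 cells 880 genes were called (475 higher), beside 582 (203 higher) by DESeq2, 572 with only these genotypes in the fit, 1529 without the second Δexon6/Δexon6 clone and 358 without the first insASAY/insASAY library. Between Δexon6/Δexon6 and WT 2167 were called, beside 3388 without the first clone and 1149 without the second. Spry4, with 111 to 222 reads per library, is limited most by depth.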
